A study of Mus musculus with 16 samples.

Results

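The genes described here are 9 members of the complement system, taken as the rows of C1qa, C1qb, C1qc, C4b, C3, Cfb, Cfp, C3ar1 and C5ar1 among the 31053 genes of the count matrices. They were followed in single-cell RNA sequencing of live CD45+ leukocytes sorted from subcutaneous flank tumors of C57BL/6J mice. The 4 groups were untreated MC38, MC38 given a single dose of 12 Gy of CT-guided radiation and harvested 24 h later, untreated Panc02-SIY, and Panc02-SIY treated in the same way, each with 4 libraries. MC38 cells derive from a colorectal carcinoma, and Panc02-SIY cells from a pancreatic adenocarcinoma, engineered to express the model antigen SIY. Each tumor is modelled by 1 implanted line, so the line, the number of cells implanted, and the library depth and barcode sharing described below cannot be told apart. The sources differ on whether 3 or 4 animals were used per group, and no label ties a library to an animal. P-values thus measure the spread between libraries.

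Complement is a cascade of plasma and tissue proteins that tags particles and dying cells for uptake and recruits leukocytes. C1q, a hexamer built from the chains encoded by C1qa, C1qb and C1qc, recognizes antibody complexes and altered cell surfaces and starts the classical pathway, in which C4 is cleaved before C3. Factor B (Cfb) and properdin (Cfp) drive the alternative pathway that amplifies C3 cleavage, and the fragments C3a and C5a act through the receptors encoded by C3ar1 and C5ar1. Most circulating complement is made in the liver, whereas C1q comes largely from macrophages and dendritic cells, and C1q-high macrophages are a common population of tumors.

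The 3 C1q chain genes lie next to each other on the minus strand of chromosome 4 in GRCm38, the build the labels name as mm10. C1qb spans chr4:136880129-136886187, C1qc chr4:136889804-136893065 and C1qa chr4:136895917-136898803 in the GENCODE annotation. C4b and Cfb lie in the major histocompatibility region of chromosome 17, at chr17:34728380-34743882 and chr17:34856374-34862518, and C3 lies further along at chr17:57203970-57228136. The receptors are single genes at chr6:122847138-122856161 (C3ar1) and chr7:16246743-16259540 (C5ar1), and Cfp is X-linked, at chrX:20925454-20931555. All 9 genes are protein coding and on the minus strand. Cfb overlaps the annotated gene Gm20547 on the same strand, which had no UMI in any library. The sister gene of C4b, C4a, is not among the counted features. It thus has no count, and whether any reads from a C4a transcript were counted as C4b is not known here.

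To show what lies upstream of the genes whose levels are compared below, the 250 bases before the RefSeq start were taken for 4 of the 6 members that have an entry (C1qb, C1qc, C3, C3ar1, C5ar1 and Cfp), on the minus strand of GRCm38.p6. C1qb and C1qc are shown because they vary together between cell classes. C3ar1 and C5ar1 are shown because the class that held most of their UMIs differed between them in Panc02-SIY. In MC38 most UMIs of both lay in the macrophage class. The windows are chr4:136886201-136886450, chr4:136892915-136893164, chr6:122856158-122856407 and chr7:16259339-16259588. RefSeq starts differ from the GENCODE ends given above at some of these genes. Parts of the C1qc and C5ar1 windows, and a few bases of the C3ar1 window, thus lie inside the GENCODE genes. Capitals mark the matches to 3 motifs searched on both strands, which do not overlap each other here.
C1qb: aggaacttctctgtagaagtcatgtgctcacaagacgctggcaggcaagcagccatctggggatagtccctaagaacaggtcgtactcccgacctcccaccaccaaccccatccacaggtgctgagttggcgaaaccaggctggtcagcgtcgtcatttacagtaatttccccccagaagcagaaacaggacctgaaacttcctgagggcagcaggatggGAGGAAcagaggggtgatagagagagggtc
C1qc: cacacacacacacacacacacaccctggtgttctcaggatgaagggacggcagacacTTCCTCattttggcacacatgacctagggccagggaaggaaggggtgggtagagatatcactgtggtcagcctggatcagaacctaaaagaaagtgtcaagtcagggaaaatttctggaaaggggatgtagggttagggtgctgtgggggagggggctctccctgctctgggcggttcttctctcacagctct
C3ar1: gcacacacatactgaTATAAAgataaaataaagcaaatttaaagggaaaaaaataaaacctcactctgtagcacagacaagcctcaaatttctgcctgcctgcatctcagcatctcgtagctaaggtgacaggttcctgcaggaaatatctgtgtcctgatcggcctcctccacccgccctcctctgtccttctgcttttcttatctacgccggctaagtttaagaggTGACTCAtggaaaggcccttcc
C5ar1: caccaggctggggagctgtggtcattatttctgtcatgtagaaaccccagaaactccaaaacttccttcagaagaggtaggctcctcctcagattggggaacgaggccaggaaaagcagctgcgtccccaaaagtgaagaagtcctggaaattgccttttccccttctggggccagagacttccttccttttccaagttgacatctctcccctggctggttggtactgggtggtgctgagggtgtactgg

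The motifs were GAGGAA, a purine-rich core that the myeloid factor PU.1 binds, TGANTCA, the AP-1 element, and TATAAA, the TATA box. GAGGAA occurred once in the C1qb window, 30 bases before the start, and once in the C1qc window on the other strand, 193 bases before it. The C3ar1 window held an AP-1 element 22 bases before the start and a TATAAA 235 bases before it, far from the usual place of a TATA box. C3, C5ar1 and Cfp held none of the 3. Of 32851 mouse promoter windows of the same length, 23.3% held GAGGAA, 6.75% the AP-1 element and 12.4% TATAAA, so each match is one of letters that many windows share.

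Barcodes were shared among libraries of MC38 tumors. A pair of MC38 libraries had a median of 964.5 barcodes in common, which is 83.3% of the smaller library, against 82 (5.54%) for a pair of Panc02-SIY libraries. The copies held a median of 4.76% of the UMIs of the richest library of that barcode, and each barcode was kept only there. This reduced the 28678 deposited barcodes to 20756, of them 2625 in MC38 and 18131 in Panc02-SIY. It removed 7218 of the 9843 MC38 and 704 of the 18835 Panc02-SIY barcodes. MC38 libraries lost 13.6% to 57.2% of their UMIs, most in irradiated library 1, and Panc02-SIY libraries at most 1.07%. The libraries then held between 1385711 and 8500889 UMIs in MC38 and between 5275195 and 43685374 in Panc02-SIY. Cell classes were gated by 8 markers each, none a complement gene, with at least 2 markers detected and more than of any other class. The macrophage gate (with Csf1r, Adgre1, Mrc1, Ms4a7, Trem2, Pf4 and Fcgr1 among its markers, all detected) held 658 untreated and 484 irradiated MC38 barcodes, and 1231 untreated and 901 irradiated Panc02-SIY barcodes. Its median depth was 25756.5, 22544.5, 6299 and 9030 UMIs in the same order. Markers of other classes were also found in the macrophage gate: 551 of its 658 untreated and 426 of its 484 irradiated MC38 barcodes had at least 2 markers of another class, against 605 of 1231 and 516 of 901 in Panc02-SIY. More markers can be detected in deeper barcodes, so these counts do not measure admixed cells alone, and leaving such barcodes out can favor shallow ones. Over all groups pooled, Ms4a4c was found in 54.5%, Ighm in 49.9% and Naaa in 49.0% of the barcodes of this gate. All 8 markers of the monocyte list were detected in it, and their summed level was 1509 to 2132 CPM (UMIs of the gene or list scaled to 1000000 UMIs of the gate in a library) in MC38 libraries left untreated and 2284 to 2801 after irradiation, against 149 to 638 and 348 to 785 in Panc02-SIY. The part of this difference in the results below was not tested. The monocyte gate held 133 untreated and 224 irradiated MC38 barcodes, and 162 and 567 in Panc02-SIY. Of these, 78.2%, 77.7%, 81.5% and 89.2% also had at least 2 markers of another class. The smallest monocyte gate, in untreated Panc02-SIY library 1, held 18 barcodes.

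Macrophage-gated barcodes carried most of the C1q mRNA in both tumors, whereas C5ar1 and C3 were spread differently. In MC38, the macrophage gate held 43.5% of the barcodes and 71.0% of the UMIs, and it held 93.9% of the C1qa, 92.9% of the C1qb and 94.3% of the C1qc UMIs. In Panc02-SIY, it held 78.9%, 77.7% and 78.8% of them. Gate shares of the C5a receptor differed between the tumors: 83.4% of its UMIs fell in the macrophage gate in MC38. In Panc02-SIY 70.3% fell in the neutrophil gate and 16.9% in the macrophage gate, which held 3.84% and 16.9% of all UMIs. The neutrophil gate of MC38 held only 0.648% of the barcodes and 0.109% of all UMIs, but 0.560% of the C5ar1 UMIs (38 UMIs). For C3, the macrophage gate held 67.8% of the UMIs in MC38 and 14.2% in Panc02-SIY, where the monocyte gate held 37.7%, the neutrophil gate 18.4% and the stromal or tumor cell gate 16.6%. For C4b, 51.3% of the Panc02-SIY UMIs lay in that stromal or tumor cell gate, a small set of CD45-sorted barcodes with collagen or keratin transcripts, and 32.5% in the macrophage gate. The stromal or tumor cell gate held 185 untreated and 80 irradiated Panc02-SIY barcodes, of which 131 and 52 came from the libraries numbered 4. Factor B was split between macrophage (58.2%) and monocyte (24.6%) gates in Panc02-SIY. These shares depend on how many cells of each class were captured as well as on the RNA in each cell.

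**Figure D1:**
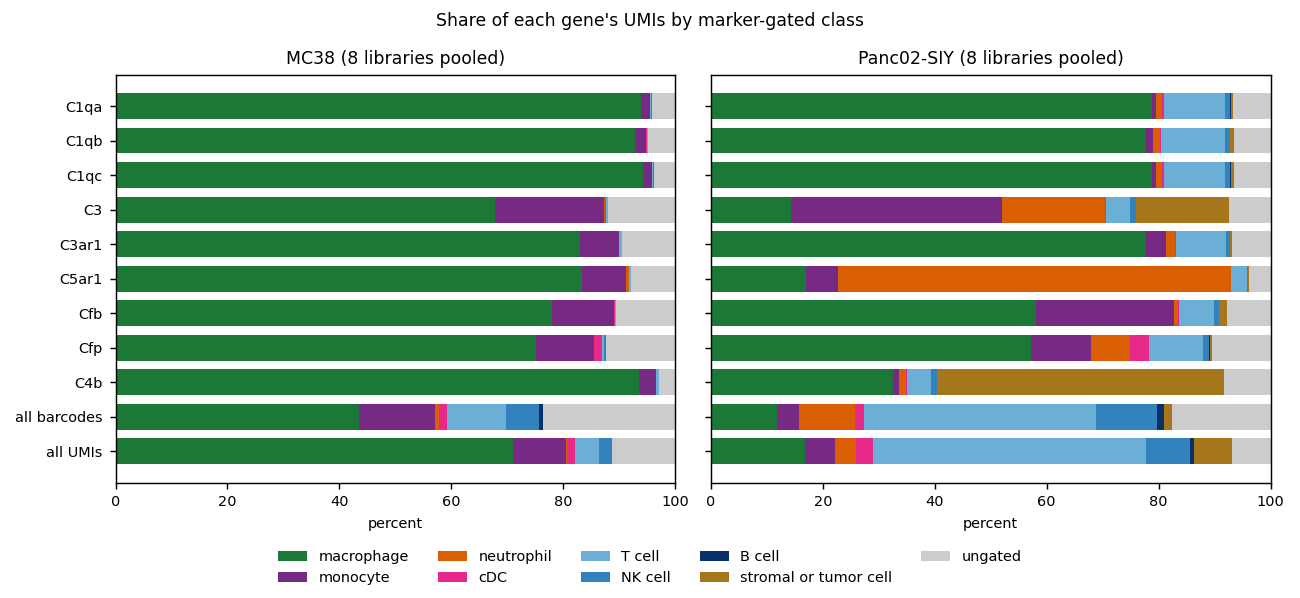
Share of each complement gene's UMIs, in percent, that fell in each marker-gated class, with the 8 MC38 libraries pooled on the left and the 8 Panc02-SIY libraries on the right, beside the shares of all UMIs and of barcodes. C1q bars are mostly macrophage in both panels, while the C5ar1 bar is 83.4% macrophage in MC38 and 70.3% neutrophil in Panc02-SIY.

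C1q was also found outside the macrophage gate, and the part of free RNA or of doublets in this was not tested. Of the untreated and irradiated T cell-gated barcodes, 49.6% and 51.8% in MC38 also had at least 2 markers of another class. In Panc02-SIY these shares were 60.9% and 51.7%. They count markers of any other class. Over all groups pooled, Klre1 of the NK cell list was found in 53.1% and Ly6c2 of the monocyte list in 47.4% of T cell-gated barcodes. The macrophage marker found most often there was Ms4a7, in 7.10%. T cell-gated barcodes, which should lack C1q, had a C1qa UMI in 61.5% (untreated) and 49.4% (irradiated) of barcodes in MC38 and in 23.1% and 15.99% in Panc02-SIY, at median depths of 2737, 3147.5, 8133 and 6004 UMIs. In macrophage-gated barcodes the shares were 94.1%, 90.3%, 96.4% and 92.6%. After thinning every barcode to 1000 UMIs the T cell shares fell to 28.7%, 21.2%, 7.10% and 4.93%, and the macrophage shares were 77.5%, 75.1%, 93.7% and 88.4%. Monocyte-gated barcodes of MC38 were at 24.8% and 25.7% after thinning, near those T cell shares, although their mean C1qa level of 616 ± 527 CPM (SD, n = 4) when untreated was above the 152 ± 65.4 CPM of the T cell gate, so no order is read from the shares. Neutrophil-gated barcodes of Panc02-SIY reached 9.16% and 6.09%, near the T cell shares of the same groups.

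Within the same libraries, most members differed between macrophage-gated and other myeloid barcodes. In fits with the library as a block (edgeR quasi-likelihood, with calls requiring a Benjamini-Hochberg adjusted p below 0.1 together with a fold above 1.3), 7 of 9 members differed between macrophage and monocyte gates in MC38, where 36.0% of all genes tested did, and 7 of 9 in Panc02-SIY, where 44.9% did. Against the neutrophil gate of Panc02-SIY all 9 differed (74.5% of genes), and against the conventional dendritic cell (cDC) gate 8 of the 8 tested (47.6%). The median log2 difference of the members from the monocyte gate was 1.00 in MC38 and 3.16 in Panc02-SIY, against 0.03 and 0.04 over all genes. The neutrophil and cDC gates of MC38 held too few barcodes for a fit, with 8 and 9 neutrophil-gated and 19 and 18 cDC-gated barcodes in the untreated and irradiated groups.

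**Figure D2:**
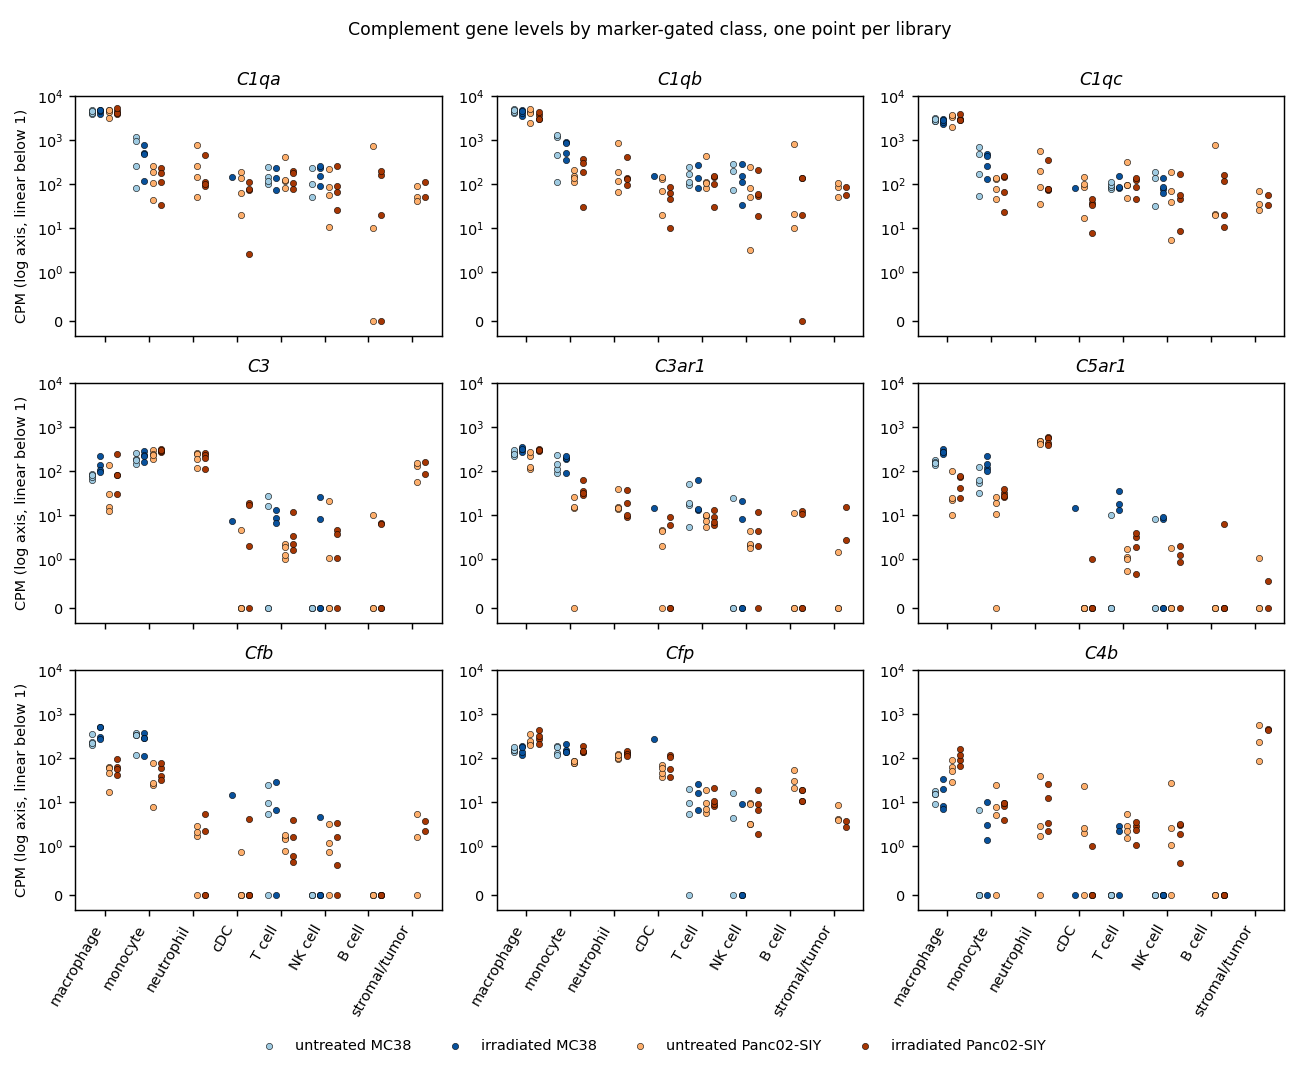
Level of each complement gene in CPM (log axis, linear below 1) in each marker-gated class, with 1 point per library of at least 10 gated barcodes and colors for the 4 groups. C1q levels are highest in the macrophage gate in every group. C5ar1 is highest in the neutrophil gate, shown only for Panc02-SIY, and C4b in the stromal or tumor cell gate.

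Within the macrophage gate, fewer members were called after irradiation than between the tumors, as was also the case over all genes. After irradiation 0 of 9 members were called in MC38 (11.3% of the 9935 genes tested) and 1 of 9 in Panc02-SIY (4.22%). At an unadjusted p below 0.05 were 2 of 9 in MC38 and 3 of 9 in Panc02-SIY. Of all 9935 genes, 2233 and 1592 were. The libraries of the groups did not overlap for C3 and C5ar1 in MC38, as for 22.5% of all genes, and for C3ar1 in Panc02-SIY, as for 6.72%. Between untreated tumors 6 of 9 members were called, where 46.6% of all genes were, and between irradiated tumors 5 of 9, where 48.0% were. With barcodes of a second class left out, C3, C5ar1 and Cfb kept their untreated calls and none of the 5 irradiated calls was kept, while the 3 C1q chains and C3ar1 were then called lower in irradiated MC38. The groups did not overlap for C5ar1, Cfb, Cfp and C4b in either tumor comparison, against 36.2% and 35.9% of genes. The median log2 difference over the members was 0.41 after irradiation in MC38 and 0.55 in Panc02-SIY, and 0.28 and 0.26 between untreated and irradiated tumors, while over all genes these medians were -0.00071, 0.03, -0.0052 and -0.04. No member was called for a difference between the tumors' radiation responses (the interaction), nor was any of the 9935 genes (0%), with 519 at an unadjusted p below 0.05. The irradiated groups enter a radiation and a tumor comparison each, so these comparisons share libraries.

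**Figure D3:**
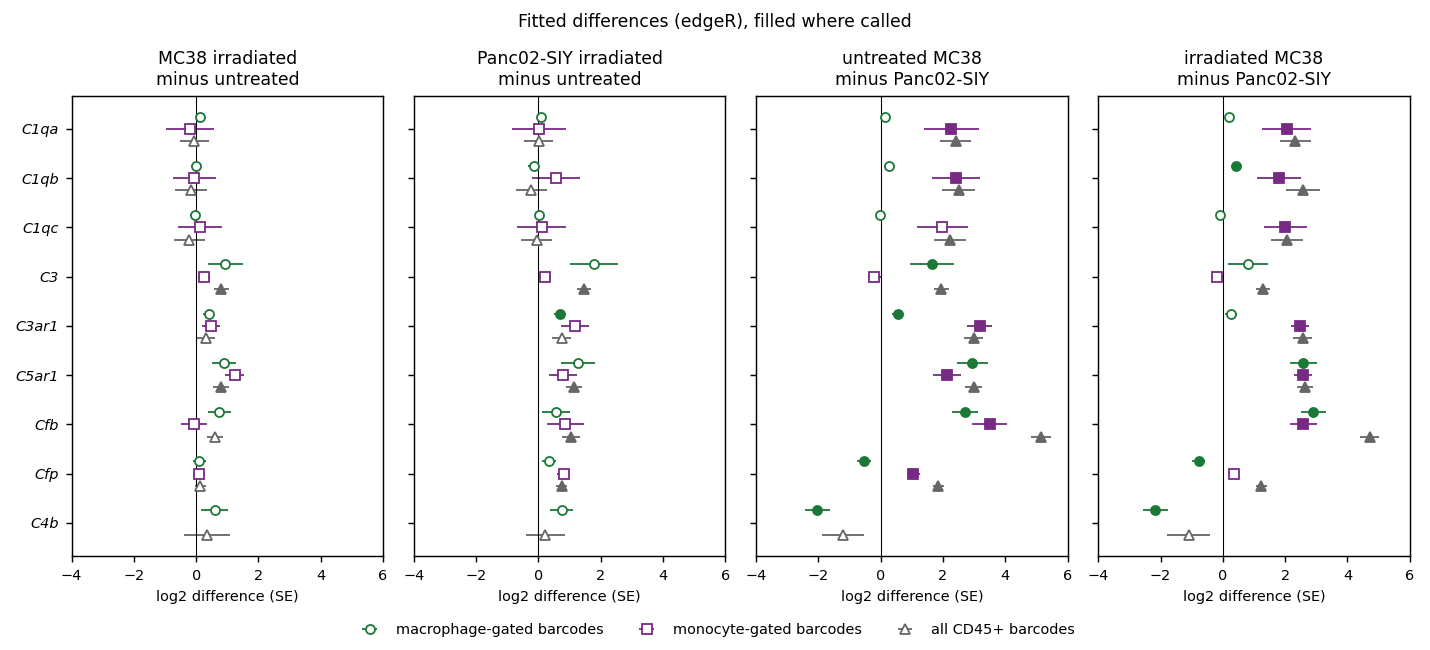
Fitted log2 differences (x axis, with SE) of the 9 complement genes for irradiation in each tumor and for MC38 against Panc02-SIY, in the macrophage gate, the monocyte gate and all CD45+ barcodes, filled where called. C5ar1 and Cfb lie to the right of 0 in the tumor comparisons of every population shown, while C4b lies to the left in the macrophage gate.

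The C1q chains were at similar levels in the macrophage gate of every group. C1qa was at 3957, 4720.3, 4186 and 4629 CPM in the 4 untreated MC38 libraries and at 3799, 4766, 4452 and 4787 in the irradiated ones. In untreated Panc02-SIY it was at 3113, 4802, 4380.1 and 4847 CPM, and in irradiated Panc02-SIY at 3858, 4482, 4137 and 5179.5. All 4 ranges overlap, and untreated Panc02-SIY library 1, with 64 gated barcodes, was the lowest of the 16. The C1qa differences on the log2 scale were 0.12 (SE 0.12) for irradiation in MC38, 0.07 (SE 0.12) in Panc02-SIY, 0.13 (SE 0.12) between untreated and 0.18 (SE 0.12) between irradiated tumors, with adjusted p between 0.245 and 0.865.

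C1qc was not called in any of these comparisons, and C1qb was called between irradiated tumors. Mean C1qc was 2910.4 ± 220.5 (SD, n = 4), 2633 ± 311, 3136 ± 765 and 3131 ± 458 CPM in untreated MC38, irradiated MC38, untreated Panc02-SIY and irradiated Panc02-SIY. C1qb was at 3557, 4737, 4070.1 and 4469 CPM in irradiated MC38 and at 3025, 3749.9, 2970.0 and 4245 in irradiated Panc02-SIY. The ranges overlap, although the model, which scales libraries by TMM, gave a log2 difference of 0.44 (SE 0.17, adjusted p 0.0475). Between untreated tumors it was 0.28 (SE 0.17, adjusted p 0.195), called without untreated Panc02-SIY library 4 (0.42). The irradiated call was lost without irradiated MC38 library 2 (0.38), or irradiated Panc02-SIY library 1 (0.38) or 3 (0.36). It was also lost with library size alone (0.27) and without a filter on low counts (0.44, adjusted p 0.138). The sums give deeper barcodes more weight, and the MC38 macrophage gate is the deeper one. After thinning to 1000 UMIs the C1qb difference was 0.12, that of C1qa was -0.21, and that of C1qc was called lower in MC38 (-0.49, adjusted p 0.00773). With second-class barcodes left out, the irradiated tumors differed by -0.97, -0.69 and -1.37 in C1qa, C1qb and C1qc, and C1qc was called lower after irradiation in MC38 (-1.13, adjusted p 0.0514). That setting drops 551 of the 658 untreated and 426 of the 484 irradiated MC38 macrophage-gated barcodes, so these values rest on few of them. It can also favor shallow barcodes, and the depth of those left is not given here.

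With the barcodes of each group pooled, more of those in MC38 had little C1q. Among macrophage-gated barcodes thinned to 1000 UMIs, the 3 chains together had a median of 9 UMIs in untreated MC38, 8 in irradiated MC38 and 12 in both Panc02-SIY groups. The shares with no C1q UMI were 11.8%, 14.5%, 2.36% and 7.19% in the same order. The upper quartile was 15 or 16 UMIs in each group and the 90th percentile 20 in all 4. The pooled groups thus differed in the barcodes with little C1q rather than in the highest ones. Medians of single libraries ran from 7 to 9 in untreated and 6.5 to 9 in irradiated MC38. In Panc02-SIY they ran from 8 to 12 untreated and 9 to 13 irradiated, so the tumors overlap or meet. Before thinning, library 4 held 784 of the 1231 untreated and 519 of the 901 irradiated Panc02-SIY barcodes of this gate.

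The proportions of the chain transcripts also moved between groups, a pattern noticed in these values and given without a test. In the macrophage gate, untreated MC38 libraries had 0.946 to 0.995 C1qa UMIs per C1qb UMI, irradiated MC38 libraries 1.01 to 1.09, untreated Panc02-SIY libraries 0.964 to 1.25 and irradiated Panc02-SIY libraries 1.20 to 1.39. For C1qc per C1qb the means were 0.647 ± 0.0123 (SD, n = 4), 0.626 ± 0.0114, 0.792 ± 0.0352 and 0.901 ± 0.0645. Every Panc02-SIY library lay above every MC38 library in the C1qc ratio, and irradiated MC38 lay above untreated MC38 in the C1qa ratio. The tags are counted at the 3' end, so a ratio can be set beside the same ratio in another group but does not give the number of molecules of one chain per molecule of the other.

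**Figure D4:**
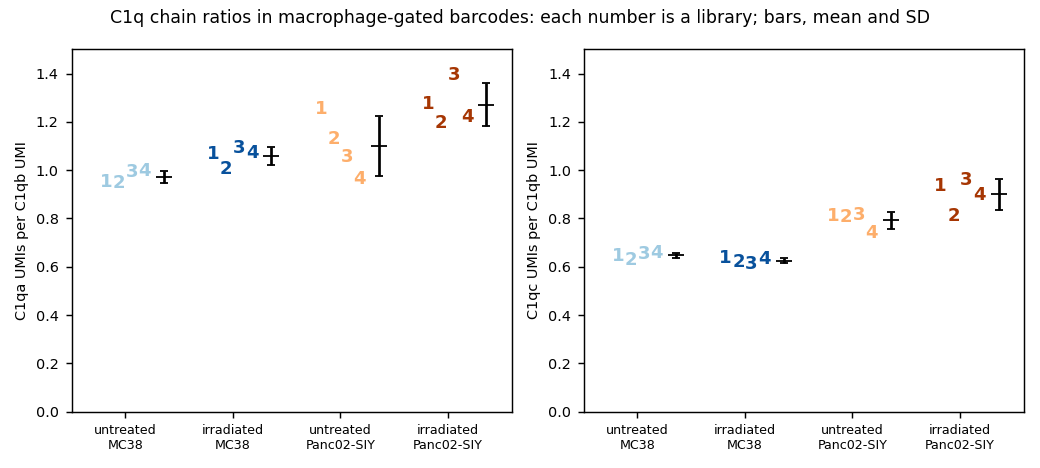
C1qa UMIs per C1qb UMI (left) and C1qc UMIs per C1qb UMI (right) in macrophage-gated barcodes, each number a library of the group on the x axis, with bars for mean and SD of 4 libraries. The C1qc ratio averages 0.647 and 0.626 in the MC38 groups and 0.792 and 0.901 in the Panc02-SIY groups.

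C1q was strongly enriched in the macrophage gate over the other myeloid gates of the same libraries. C1qa exceeded its monocyte-gate level by 3.32 on the log2 scale in MC38 (SE 0.43, adjusted p 2.46e-05) and by 5.17 in Panc02-SIY (SE 0.46, adjusted p 2.03e-07). In Panc02-SIY it exceeded the neutrophil gate by 4.33 (SE 0.44) and the cDC gate by 5.79 (SE 0.44). Mean C1qa in the cDC gate of Panc02-SIY was 101 ± 73.7 CPM untreated and 66.2 ± 45.6 irradiated (SD, n = 4), below the T cell-gate means of 185 ± 155 and 139 ± 55.1. The cDC-gate means of this gene, which dendritic cells can make, were thus not above those of a gate that should lack it. Of these T cell-gated barcodes, 60.9% and 51.7% also had 2 markers of another class, a share not limited to macrophage markers. Their median number of macrophage markers was 0 in both groups.

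C4b, which encodes the C4 cleaved by C1s in the classical pathway, was lower in MC38 than in Panc02-SIY macrophage gates. MC38 libraries had 17.8, 15.1, 9.31 and 15.7 CPM untreated and 8.39, 7.09, 20.1 and 33.5 CPM irradiated. Panc02-SIY libraries had 28.8, 90.02, 61.7 and 51.5 CPM untreated and 158, 68.3, 90.4 and 117 CPM irradiated. The tumors did not overlap when untreated or when irradiated. The log2 differences were -2.03 (SE 0.41, adjusted p 0.00132) and -2.18 (SE 0.41, adjusted p 0.000728). With second-class barcodes left out neither was called (-1.34, adjusted p 0.12, and -2.24, adjusted p 0.165). Within the Panc02-SIY libraries, C4b exceeded the monocyte gate by 3.50 (SE 0.24, adjusted p 3.29e-14), and in MC38 by 2.25 (SE 0.38, adjusted p 1.69e-05). Its highest levels, between 86.6 and 574 CPM, were in the 5 Panc02-SIY libraries with at least 10 stromal or tumor cell-gated barcodes, and no MC38 library had more than 1 such barcode. The stromal list summed to between 14.6 and 37.7 CPM in the macrophage gate of untreated MC38, 14.7 to 20.8 in irradiated MC38, 15.9 to 25.1 in untreated Panc02-SIY and 15.3 to 61.4 in irradiated Panc02-SIY, and its part in the C4b difference was not tested. Irradiation changed C4b by 0.60 (SE 0.44) in MC38 and 0.74 (SE 0.38) in Panc02-SIY, with adjusted p of 0.476 and 0.37.

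C3, the component on which all pathways converge, was called after irradiation in the sums over all CD45+ barcodes described below and not in the macrophage gate. In the macrophage gate it was at 62.5, 85.1, 73.4 and 80.0 CPM in untreated MC38 and at 218, 135, 108 and 97.2 in irradiated MC38, so every irradiated library lay above every untreated one, but the log2 difference of 0.94 (SE 0.58) had an adjusted p of 0.376. In Panc02-SIY it was at 136, 30.4, 15.2 and 12.5 CPM untreated and at 239.7, 80.9, 80.2 and 29.5 irradiated. Library 1 was the highest in both Panc02-SIY groups, the groups overlap, and the difference of 1.79 (SE 0.77) had an adjusted p of 0.273. Without untreated Panc02-SIY library 1 that difference became 2.23 and was called. The monocyte list also summed highest in that library among the untreated ones, at 638 CPM. The untreated tumors differed in C3 by 1.65 (SE 0.72, adjusted p 0.0823), a call lost without any 1 of the untreated MC38 libraries, without untreated Panc02-SIY library 2, 3 or 4 (1.12 without library 4) or irradiated Panc02-SIY library 2, after thinning (1.88, adjusted p 0.114), without a filter on low counts (1.64, adjusted p 0.11) and with DESeq2 (0.82, adjusted p 0.38).

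Monocyte- and neutrophil-gated barcodes held C3 at higher levels than macrophage-gated ones. Mean C3 in the monocyte gate was 191 ± 45.6, 228 ± 51.6, 242 ± 43.1 and 291 ± 15.95 CPM (SD, n = 4) in untreated MC38, irradiated MC38, untreated Panc02-SIY and irradiated Panc02-SIY. The macrophage gate was lower than the monocyte gate by a log2 difference of -1.05 in MC38 (SE 0.35, adjusted p 0.0317) and -2.38 in Panc02-SIY (SE 0.38, adjusted p 9.89e-05), and lower than the neutrophil gate of Panc02-SIY by -2.17 (SE 0.43, adjusted p 0.00195). After irradiation, C3 in the monocyte gate changed by 0.24 (SE 0.19) and 0.22 (SE 0.18), with adjusted p of 0.876 and 0.802. A C3 UMI was found in at most 4.88% of T cell-gated barcodes of any group and in 55.9% to 67.0% of monocyte- and MC38 macrophage-gated ones.

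Factor B was higher in MC38 than in Panc02-SIY in both the macrophage and the monocyte gate. In the macrophage gate Cfb was at 234, 349, 199 and 225 CPM in untreated MC38 and at 517, 501, 298 and 268 in irradiated MC38. In Panc02-SIY it was at 61.8, 61.3, 47.3 and 17.0 CPM untreated and at 96.9, 64.6, 56.1 and 41.9 irradiated. Every MC38 library lay above every Panc02-SIY library, by a log2 difference of 2.71 (SE 0.42, adjusted p 0.000209) when untreated and 2.91 (SE 0.41, adjusted p 9.57e-05) when irradiated. With second-class barcodes left out the irradiated difference was 1.80 and not called (adjusted p 0.11). The irradiated and untreated MC38 groups overlap, with a difference of 0.75 (SE 0.36, adjusted p 0.239). In the monocyte gate the tumor differences were 3.50 (SE 0.56, adjusted p 0.000813) and 2.58 (SE 0.44, adjusted p 0.000732). Between macrophage and monocyte gates it was not called in either tumor (0.12, SE 0.26, in MC38 and 0.39, SE 0.34, in Panc02-SIY), and neutrophil-gated barcodes had a mean of 1.69 ± 1.24 CPM untreated and 1.94 ± 2.61 irradiated (SD, n = 4).

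Properdin ran the other way in the macrophage gate. Cfp was at 141, 151, 154 and 181 CPM in untreated MC38 and at 354, 218, 249 and 201 in untreated Panc02-SIY, with no overlap. The log2 difference was -0.54 (SE 0.21, adjusted p 0.0494) when untreated and -0.78 (SE 0.21, adjusted p 0.00693) when irradiated. The untreated call was lost without untreated MC38 library 1 (-0.49) or untreated Panc02-SIY library 1 (-0.39), and after thinning (-0.81, adjusted p 0.108). With second-class barcodes left out neither call was kept (-0.51, adjusted p 0.487, and -0.76, adjusted p 0.43). In the monocyte gate the untreated difference had the opposite sign, 1.05 (SE 0.22, adjusted p 0.00123), with 132, 121, 188 and 184 CPM in MC38 against 77.3, 86.8, 78.9 and 87.5 in Panc02-SIY. There, the irradiated Panc02-SIY libraries rose to 135, 188, 136 and 147 CPM, above every untreated one, but the change of 0.81 (SE 0.20) had an adjusted p of 0.222. Of the 6097 genes tested in that gate, 391 did not overlap between these groups.

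The C3a receptor held the single radiation call in the macrophage gate. C3ar1 was at 111, 223, 271 and 126 CPM in untreated and at 296, 281, 309.7 and 305 in irradiated Panc02-SIY. No irradiated library overlapped the untreated ones, of which libraries 1 and 4 were far below the others, and the log2 difference was 0.70 (SE 0.19, adjusted p 0.0624). It lost the call with second-class barcodes left out (0.78, adjusted p 0.332), without both Panc02-SIY libraries numbered 1 (0.59, adjusted p 0.111), without untreated library 4 (0.50) or irradiated library 1, 2 or 3 of Panc02-SIY (0.68 to 0.71), and after thinning (0.56, adjusted p 0.20). In MC38, it was at 221, 261, 294 and 246 CPM untreated and 274, 319, 357 and 315 irradiated, which overlap, with a difference of 0.41 (SE 0.18, adjusted p 0.187). The difference between the radiation responses was -0.29 (SE 0.26), which was not called. Between untreated tumors C3ar1 was higher in MC38 by 0.55 (SE 0.19, adjusted p 0.0229), a call lost without untreated Panc02-SIY library 4 (0.37), after thinning (0.23, adjusted p 0.531) and with second-class barcodes left out (0.044, adjusted p 0.947), and between irradiated tumors by 0.26 (SE 0.18, adjusted p 0.263).

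C3ar1 was higher in macrophage-gated than in monocyte-gated barcodes of both tumors. The log2 difference was 3.16 (SE 0.20, adjusted p 4.69e-12) in Panc02-SIY and 0.86 (SE 0.16, adjusted p 0.000237) in MC38, and the difference between these was not tested. In the monocyte gate C3ar1 was at 226, 90.8, 113 and 144 CPM in untreated MC38 and at 0, 14.5, 15.4 and 25.7 in untreated Panc02-SIY. The tumors did not overlap in that gate, with differences of 3.17 (SE 0.41, adjusted p 2.23e-05) untreated and 2.48 (SE 0.28, adjusted p 2.24e-06) irradiated. Of the 6097 genes tested there, 1223 and 1884 did not overlap in the same comparisons. The macrophage marker list in the monocyte gate was also higher in MC38, with medians of 1967 and 2322 CPM against 1172 and 1383, and its part in the C3ar1 difference was not tested.

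The C5a receptor was called higher in MC38 in the macrophage gate, the monocyte gate and all CD45+ barcodes. In the macrophage gate C5ar1 was at 141, 181, 159 and 151 CPM in untreated MC38 and at 316, 273, 247 and 271 in irradiated MC38. In Panc02-SIY it was at 98.8, 22.5, 24.5 and 10.1 CPM untreated and at 40.8, 73.5, 75.8 and 24.6 irradiated. Every MC38 library was above every Panc02-SIY library, by 2.95 (SE 0.51, adjusted p 0.000433) untreated and 2.59 (SE 0.45, adjusted p 0.000465) irradiated. The irradiated call was lost with second-class barcodes left out (1.29, adjusted p 0.227), and over all CD45+ barcodes thinning took the irradiated difference from 2.64 to 0.59 (adjusted p 0.162) and the untreated one from 2.99 to 0.90. Irradiated MC38 also lay above untreated MC38 in every library, yet the difference of 0.90 (SE 0.39) had an adjusted p of 0.189. Without untreated Panc02-SIY library 1, whose C5ar1 level was far from the other 3 of its group, the same difference had an SE of 0.28 and an adjusted p of 0.0678. In Panc02-SIY the change of 1.26 (SE 0.54, adjusted p 0.271) was called without untreated library 1 (1.64) or irradiated library 4 (1.63).

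**Figure D5:**
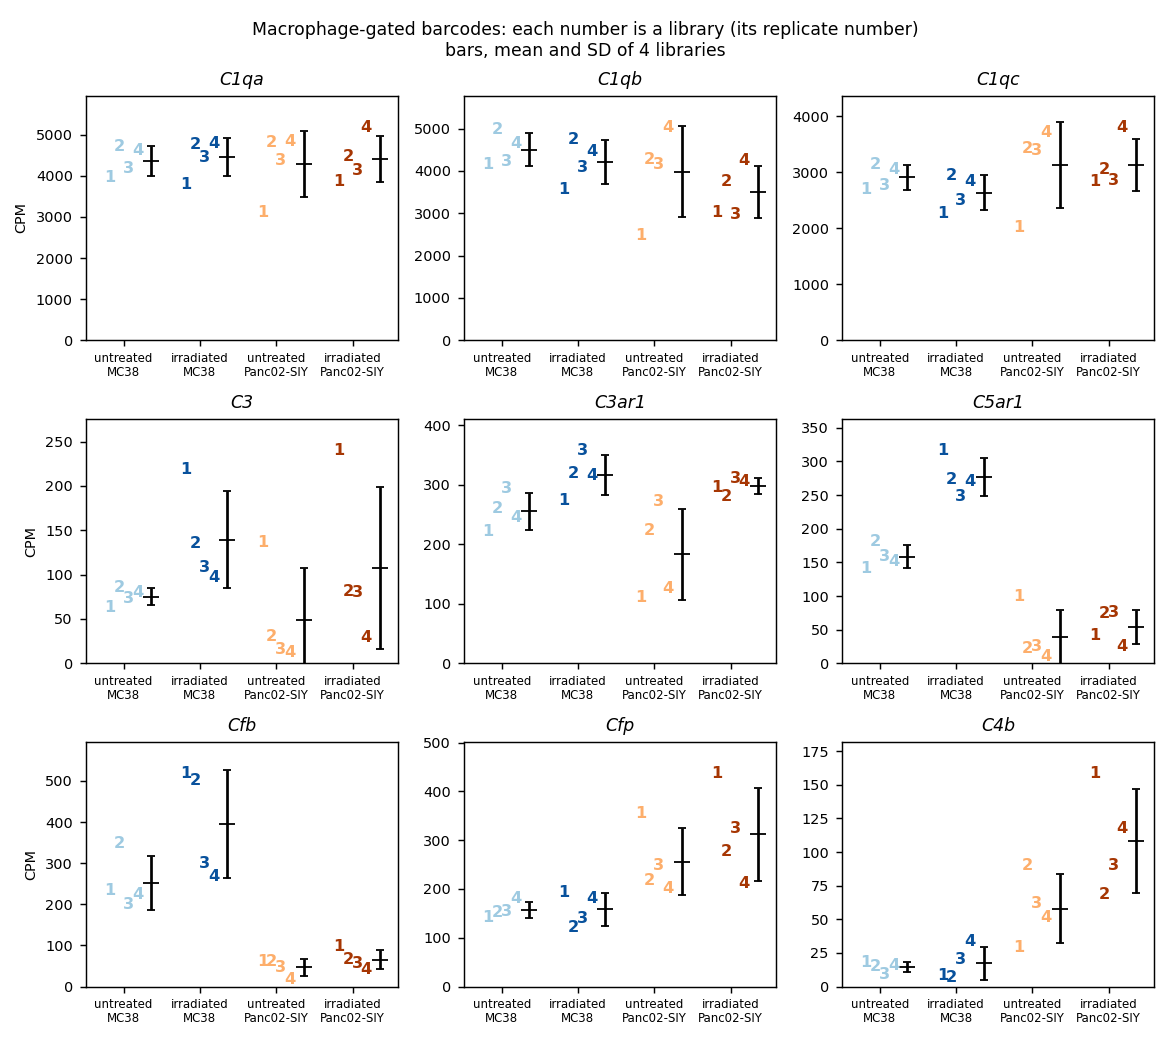
Level in CPM (axes start at 0) of the 9 complement genes in macrophage-gated barcodes, each number a library of the group on the x axis, with bars for mean and SD of 4 libraries. C1qa and C1qc overlap in all 4 groups, C5ar1 and Cfb are higher in every MC38 library, and C4b is lower in every MC38 library than in the Panc02-SIY group of the same treatment.

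In Panc02-SIY, C5ar1 was highest in the neutrophil gate. It was at 485, 465, 492 and 411 CPM in untreated and at 592, 559.6, 446 and 397 in irradiated neutrophil-gated barcodes, so the groups overlap (0.09, SE 0.16, adjusted p 0.947). The macrophage gate of the same libraries was lower by a log2 difference of -4.02 (SE 0.38, adjusted p 2.07e-05). Of neutrophil-gated barcodes 61.5% and 58.3% had a C5ar1 UMI at median depths of 2579 and 2210.5 UMIs, against 0.737% and 1.16% of T cell-gated ones. The neutrophil list summed to between 84.2 and 219 CPM in the untreated and between 114 and 173 CPM in the irradiated macrophage gate of Panc02-SIY, and its part in the C5ar1 values there was not tested.

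In the monocyte gate the tumors differed in most members, and irradiation gave no call. None of the 8 members tested was called after irradiation in MC38 (0.0984% of 6097 genes) or in Panc02-SIY (0%). At an unadjusted p below 0.05 were 1 and 2 members, and 434 and 548 of the 6097 genes. The MC38 change of C5ar1, from 31.6, 121, 54.7 and 64.5 CPM to 120.1, 101, 149 and 219, was 1.23 (SE 0.31, adjusted p 0.274), and it was called without untreated library 2 (1.62). Between untreated tumors 6 of 8 were called, where 25.6% of genes were, and between irradiated tumors 6 of 8, where 34.7% were. All were higher in MC38, as 12.6% and 17.5% of genes were. C5ar1 was higher by 2.14 (SE 0.45, adjusted p 0.00213) and 2.57 (SE 0.29, adjusted p 2.14e-06). C3 differed by -0.20 (SE 0.20) and -0.18 (SE 0.18), neither called, and C4b was too low to be tested. The C1q chains made up 2 of the untreated and 3 of the irradiated calls. In MC38, the share of barcodes with C1qa after thinning was near that of the T cell gate, although its untreated mean level was higher, as given above. All 3 irradiated calls were lost without irradiated MC38 library 2 or 4, or irradiated Panc02-SIY library 1 or 3 (1.46 to 2.01). The untreated C1qa call (2.26, adjusted p 0.0973) was lost in all but 3 of the 16 fits that left out 1 library (1.81 to 2.59), after thinning (1.06), with library size alone, without a filter on low counts and with the replicate number as a block. The untreated C1qb call was lost without untreated MC38 library 1 or 4 or untreated Panc02-SIY library 2, 3 or 4 (1.99 to 2.44), after thinning (1.55) and without a filter.

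Neutrophil-gated and cDC-gated barcodes of Panc02-SIY showed no called change after irradiation. In the neutrophil gate 0 of 7 members tested were called (0.0177% of genes). None of them was at an unadjusted p below 0.05, where 378 of 5656 genes were. In the cDC gate 0 of 4 were called (0%), with C1qc at an unadjusted p below 0.05 (-1.56, SE 0.57, adjusted p 0.47), as were 440 of 5155 genes. C3, C3ar1, C5ar1, Cfb and C4b had too few UMIs there to be tested, and C5ar1 had no UMI in any untreated cDC-gated library.

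Over all CD45+ barcodes, C3 and C5ar1 were called higher after irradiation in both tumors, although after thinning only C3 in Panc02-SIY kept its call. Fewer cells of a class and less RNA per cell cannot be told apart in these sums. In MC38 2 of 9 members were called (11.7% of 12446 genes) and in Panc02-SIY 4 of 9 (14.7%). All were higher after irradiation, as 7.24% and 7.68% of genes were. C3 went from 59.4, 99.9, 77.3 and 84.9 CPM to 196, 128, 113 and 101 in MC38 (log2 difference 0.81, SE 0.23, adjusted p 0.044), with no overlap, as for 19.9% of genes. In Panc02-SIY it went from 31.0, 28.1, 21.6 and 16.9 to 102, 57.2, 65.6 and 57.8 (1.47, SE 0.24, adjusted p 0.00139), also with no overlap, as for 17.4% of genes. The share of monocyte-gated barcodes was 10.3% and 16.3% in untreated and irradiated MC38 and 2.04% and 6.46% in Panc02-SIY, on average over libraries, and that of neutrophil-gated barcodes was 8.12% and 13.7% in Panc02-SIY. The part of these shares in the changes was not tested.

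The other calls over all CD45+ barcodes were C5ar1 in both tumors and the alternative-pathway genes in Panc02-SIY. C5ar1 rose by 0.79 in MC38 (SE 0.25, adjusted p 0.0653), from a mean of 135 ± 13.01 to 218 ± 22.5 CPM (SD, n = 4). It rose by 1.13 in Panc02-SIY (SE 0.26, adjusted p 0.0102), from 20.1 ± 7.68 to 45.9 ± 16.3. Its groups did not overlap in MC38, as for 19.9% of genes, but they overlap in Panc02-SIY. Cfb rose by 1.05 (SE 0.29, adjusted p 0.0238) and Cfp by 0.75 (SE 0.17, adjusted p 0.00894) in Panc02-SIY, while in MC38 the differences, not called, were 0.62 (SE 0.26) and 0.13 (SE 0.17). The interaction called no member, with -0.43 (SE 0.38) for Cfb and -0.61 (SE 0.24) for Cfp, and 0.345% of genes. Both MC38 calls were lost without untreated MC38 library 1 (0.67 for C3 and 0.71 for C5ar1) or irradiated MC38 library 1 (0.62 and 0.76), and when every deposited barcode was kept (0.51 for C3 and 0.54 for C5ar1). That of C5ar1 was also lost without untreated MC38 library 3 or 4, irradiated MC38 library 2 or 4, or irradiated Panc02-SIY library 2 or 3 (0.75 to 0.80). Thinning lost both MC38 calls. In Panc02-SIY it lost those of C5ar1 (adjusted p 0.134), Cfb (adjusted p 0.156) and Cfp (adjusted p 0.187), while C3 kept its call. Between the tumors 8 of 9 members were called in each treatment group, all higher in MC38 (61.2% and 58.6% of genes were called, 29.1% and 29.9% as higher), from 1.85 for Cfp to 5.15 for Cfb when untreated, and C4b was the exception (-1.21, SE 0.68, adjusted p 0.134). Macrophage-gated barcodes made up 48.0% and 37.4% of MC38 and 10.7% and 9.42% of Panc02-SIY libraries on average.

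Of 38 other complement genes listed, 10 could be tested in the macrophage gate. After irradiation 4 of the 10 were called in MC38 (11.3% of all genes) and 3 in Panc02-SIY (4.22%), with Cd93, a surface lectin once named as a C1q receptor, higher in both (0.81, SE 0.22, and 1.25, SE 0.26) and C1qbp, a mitochondrial protein that can bind C1q, lower in both (-0.71, SE 0.14, and -0.62, SE 0.16). The integrin genes of the iC3b receptors made up the rest: Itgax and Itgb2 were higher after irradiation in MC38 (0.53, SE 0.14, and 0.50, SE 0.12), and Itgam in Panc02-SIY (1.21, SE 0.19). Between untreated tumors C5ar2, Itgam, Cd93 and C1qbp were among the genes called higher in MC38, and Itgax and C6 were lower, where 46.6% of all genes were called. Of these 6, all except Cd93 were also called between irradiated tumors (48.0% of all genes). C5ar2, the second C5a receptor, was higher in MC38 by 1.88 (SE 0.37, adjusted p 0.000344) untreated and 1.01 (SE 0.35, adjusted p 0.0247) irradiated. It had only 51 and 74 UMIs over the untreated and irradiated Panc02-SIY libraries, and the tumors overlap. Untreated libraries ran from 14.2 to 17.5 CPM in MC38 and from 3.09 to 16.5 in Panc02-SIY. Irradiated ones ran from 8.39 to 18.3 and from 4.80 to 14.8. C6, a component of the membrane attack complex, had no UMI among the 17364258 and 11037205 UMIs of the untreated and irradiated MC38 macrophage gates. In Panc02-SIY it averaged 26.1 ± 23.4 CPM (SD, n = 4) untreated, from 4.12 to 57.8, and 39.0 ± 19.6 CPM irradiated, from 18.6 to 64.1.

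Across 23 combinations of leukocyte gate and group, the genes most like the C1q chains in mean log2 level (CPM plus 1) were the chains themselves, with Pearson r of 0.99 between C1qa and C1qc. The next were Ms4a7, itself a marker of the macrophage gate, for C1qa (r = 0.96) and C1qb (r = 0.94), and Olfml3 for C1qc (r = 0.96). C5ar1 was most like Cxcl2 (r = 0.95), Pla2g7 and Il1rn, and C3 was like Gda (r = 0.96) and F10. C3ar1 ran with Ctsl (r = 0.95), Itm2b and Axl. For Cfb the closest were Ms4a6d (r = 0.96), Ldhb and Siglec1, and those for Cfp included Lrrc25 and Ifngr2. For C4b they were Slc13a3 (r = 0.89), Lipa and Mmp13, without the stromal or tumor cell gate, in which its levels were highest. These are descriptions over 9245 genes, and the points share libraries and depth.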

How the data were processed

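Single-cell RNA libraries of sorted CD45+ cells, 4 per group in 4 groups, had been made with the 10x Genomics 3' kit. According to the submitters' processing notes the authors used bcl2fastq 2.20.0, Cell Ranger 3.1.0 and mm10, and the deposited values are raw UMI counts per barcode and gene, with 1 matrix per library and no scaling. Whether the called cells were filtered further is not given in the sources used here.

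A barcode found in several libraries was kept only in the library with most UMIs. Barcodes were gated by 8 markers per class (at least 2 detected, and more than of any other class). No doublet caller was run, and barcodes with 2 markers of a second class were left out as an alternative. Counts were summed per library and gate where at least 10 barcodes were there, and levels are CPM of that sum. Groups were compared over all 4 groups in 1 fit where each had at least 3 such libraries, with edgeR 4.0.16 in R 4.3.3 (filterByExpr, TMM, robust quasi-likelihood F tests). Benjamini-Hochberg adjustment covered all genes tested, and a call needed an adjusted p below 0.1 with a fold above 1.3. Gates were compared within libraries, as blocks. Shares carry exact binomial intervals, which cover counting error only. Alternatives were all barcodes, at least 3 markers, barcodes with 500 or more genes and no more than 10% of UMIs mitochondrial, thinning to 1000 UMIs, RLE scaling, library size alone, no filter, DESeq2 1.42.0, the replicate number as a block and leaving out each library, and, chosen after seeing the data, leaving out both Panc02-SIY libraries numbered 1. All 9 members are named, as are other listed complement genes where called and the 3 genes most like each member in profile (at least 20 CPM in 1 point), except a few items that are not reported here. The fits were tested on simulated data. The members and lists were chosen with earlier results of these data known.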

Additional observations from a re-analysis of the deposited data

Results flagged for a closer look

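Among 143 groups of 4 libraries in which a member's level was looked at, 16 had a library whose gap to the nearest of the others exceeded Dixon's 95% limit. For independent, normally distributed values about 1 in 20 groups exceed it, or 7.15. Some groups had no UMI in the other libraries, and the C1q chains vary together. The flags thus cannot be weighed against 7.15. Untreated Panc02-SIY library 1 stood out in the macrophage gate with 136 CPM of C3 and 98.8 CPM of C5ar1, and it also held the highest C3ar1 level of the untreated neutrophil gates (38.5 CPM) and the highest C3 (4.70 CPM) and C4b (23.5 CPM) of the untreated cDC gates. It had 64 macrophage-gated and 20 cDC-gated barcodes. The cDC gates of all Panc02-SIY libraries together held only 13 UMIs of C3 and 10 of C4b. Both Panc02-SIY libraries numbered 4 stood high in the neutrophil gate. The irradiated one had 455 CPM of C1qa, 415 CPM of C1qb and 359 CPM of C1qc, and the untreated one 849.8 CPM of C1qb and 40.4 CPM of C4b. Their C1qa levels in the T cell gate were 176 and 416 CPM, against 78.1 to 194 and 82.3 to 125 in the other libraries of their groups.

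The remaining cases were low levels or single libraries. Irradiated MC38 library 1 had 210.0 CPM of C3ar1 over all CD45+ barcodes, below the 265 to 271 CPM of the other irradiated MC38 libraries. C4b was at 6.73 CPM in the monocyte gate of untreated MC38 library 2, where the others had no UMI. In cDC gates, irradiated Panc02-SIY library 4 had 1.02 CPM of C5ar1 and 1.02 CPM of C4b, untreated Panc02-SIY library 4 had 0.887 CPM of Cfb and irradiated Panc02-SIY library 3 had 4.17 CPM of Cfb, each from 1 or 2 UMIs against none elsewhere in the group.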

How the results depend on the processing

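Of 483 counts of called members under other settings, 439 stayed within 1.5 times the reported count. The gate and the depth mattered most: with barcodes of a second class left out, few MC38 barcodes remain, and macrophage calls became 1 and 0 after irradiation in MC38 and Panc02-SIY and 3 between untreated tumors, monocyte calls between irradiated tumors 2, and macrophage against monocyte calls in MC38 4 and against cDC 5. Thinning to 1000 UMIs gave 0 macrophage calls after irradiation in Panc02-SIY, 2 between untreated tumors, 0 and 3 monocyte calls between untreated and irradiated tumors (4 members still tested in each), 0 and 1 calls over all CD45+ barcodes after irradiation in MC38 and Panc02-SIY, and 4 against cDC. With every deposited barcode kept, monocyte calls after irradiation in Panc02-SIY became 1 and all CD45+ calls in MC38 0. Without a filter on low counts the monocyte calls were 1 in MC38 and 2 in Panc02-SIY after irradiation and 3 between irradiated tumors, and the all CD45+ calls in MC38 were 1, as with library size alone. Without both Panc02-SIY libraries numbered 1, the macrophage calls after irradiation were 1 and 2. Scaling by library size alone moved the share of higher calls between irradiated macrophage gates from 46.2% to 30.7% and after irradiation in MC38 from 46.3% to 25%, with medians over all genes down to -0.22. Between macrophage gates of irradiated tumors, 881 genes were called after thinning and 545 with second-class barcodes left out, against 4772. The cause was not tested.

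Leaving out 1 library gave 0 to 1 macrophage calls after irradiation in MC38 (1 without untreated Panc02-SIY library 1), 0 to 3 in Panc02-SIY (3 without its untreated library 1, 2 without irradiated library 4, 0 without untreated library 4 or irradiated library 1, 2 or 3), 0 to 1 monocyte calls in MC38 (1 without its untreated library 2), 3 to 7 between irradiated monocyte gates (3 without irradiated MC38 library 2 or 4, or irradiated Panc02-SIY library 1 or 3), 0 to 3 over all CD45+ barcodes in MC38 (0 without untreated or irradiated library 1) and 0 to 1 for the interaction (Cfp at -0.89 without untreated Panc02-SIY library 4). Signs turned for differences near 0: in the macrophage gate, C1qc after irradiation in MC38 was 0.031 with all barcodes and ranged from -0.11 to 0.020 over left-out libraries (positive without irradiated MC38 library 1), and between irradiated tumors it was 0.089 with all barcodes, 0.00053 without irradiated MC38 library 1 and 0.039 without irradiated Panc02-SIY library 4. With second-class barcodes left out, C3ar1 (-0.48) and Cfb (-0.43) after irradiation in MC38, C1qb between untreated tumors (-0.13), and C1qa (-0.97), C1qb (-0.69) and C3ar1 (-1.21) between irradiated tumors turned, as did C1qa after thinning (-0.21). Between macrophage and monocyte gates in MC38, Cfb became -0.17 with the cell filter and -0.074 without irradiated MC38 library 1, and Cfp 3.05 with second-class barcodes left out, 0.27 thinned, 0.017 without a filter and from -0.12 to 0.053 over left-out libraries (positive without irradiated MC38 library 3).

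No label ties the replicate numbers to shared animals or days, and not every pair of same-numbered libraries deviated together: deviations of same-numbered macrophage gates correlated between -0.0077 and 0.03 in MC38 and between 0.02 and 0.47 in Panc02-SIY. Over all CD45+ barcodes the range was -0.040 to 0.081 in MC38 and -0.157 to 0.751 in Panc02-SIY, where 3 of 4 pairs were above 0.1 and 1 was below -0.1. With the replicate block, 2 members instead of 0 were called in the MC38 macrophage gate after irradiation, C3ar1 (0.41) and Cfb (0.69), and no other count moved beyond 1.5 times. No fit was possible for neutrophil and cDC gates of MC38. Depth limits C4b, Cfb, C5ar1 and C3 most, with as few as 7, 15, 16 and 18 UMIs in a macrophage-gated library.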
